A study of Homo sapiens with 10 samples.

Results

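The FOXO transcription factors FOXO1 and FOXO3 were followed together with IRS2, INSR, TXNIP, CCNG2, SESN1, PIK3IP1, BCL6 and CITED2, which are described as genes that FOXO factors raise. They were chosen by gene symbol as a readout of the output of the kinase AKT, 10 genes of the 23426 that were measured in each sample. All 10 passed the filter on low expression, TXNIP only through its level in 1 of the 2 cell lines studied. The question was whether these genes differed between cells given PKC412 and cells given its solvent, in each of 2 breast cancer cell lines.

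Both lines are established breast cancer cell lines, MDA-MB-468 of the basal subtype and ZR75-1 of the luminal subtype. PKC412 (midostaurin) is a staurosporine derivative that inhibits many kinases, and DMSO is its solvent. For each line, transcriptomes of 2 DMSO samples and 3 samples treated with 1 µM PKC412 were analysed, all harvested after 6 h, 10 samples in all. The dose is that of the sample labels and the study's methods, while some of its legends name a lower dose for this experiment. No genetic change or other agent was added in any group, each subtype is represented by 1 line, and the labels do not say whether replicates came from separate cultures, so p-values measure the spread between these samples, which may be technical.

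AKT is activated downstream of insulin and growth factor receptors through PI3-kinase. Active AKT phosphorylates FOXO factors, which are then held in the cytoplasm by 14-3-3 proteins. When AKT activity falls, FOXO factors can enter the nucleus and raise genes that slow the cell cycle, promote cell death or restore sensitivity to insulin, among them genes of the insulin pathway itself. FOXO proteins are regulated mainly by phosphorylation and location, so the mRNA of a FOXO factor is not a measure of its activity.

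Expression was given as FPKM, a measure of fragments normalised for the length of the transcript and for the mapped total of the sample. FPKM hold no counts, and depth was not estimated from them. Differences were tested with limma on log2(FPKM + 1) over 16071 genes, with Benjamini-Hochberg adjustment and a threshold of 0.05 on the adjusted p-value, and all log2 fold changes below are on that scale, which understates the change of genes with low FPKM. Ratios, in contrast, are of mean FPKM without an added value. For a single gene, exact permutation of 2 and 3 samples cannot go below p = 0.1.

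The lines were checked against their markers. In MDA-MB-468 the 5 basal markers summed to between 2260 and 2480 FPKM in both treatments, and in ZR75-1 to at most 26 FPKM. The 5 luminal markers summed to at least 5040 FPKM in ZR75-1, to between 68.1 and 96.8 FPKM in the DMSO samples of MDA-MB-468 and to between 139 and 174 FPKM in its PKC412 samples. Most of the sum in MDA-MB-468 was XBP1, with means of 72.35 FPKM with DMSO and 144.5 FPKM with PKC412 (limma adjusted p = 0.216). Of the 5 luminal markers, 4 had a positive log2 fold change there, TFF1 a negative one, and 0 passed the test. In the DMSO comparison of the lines, 4 of 5 basal markers were higher in MDA-MB-468 and CDH3 was lower, and 5 of 5 luminal markers were lower. Of the 4 markers of leukocytes, endothelium, T cells and fibroblasts, none exceeded 0.890 FPKM in any sample. The highest was the endothelial PECAM1, which went from 0.511 and 0.430 FPKM with DMSO to 0.890, 0.760 and 0.831 FPKM with PKC412 in MDA-MB-468 (limma adjusted p = 0.0404, and 0.199 after the GC adjustment described further on). The part of these markers in the results was not tested.

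FOXO factors bind DNA at a short forkhead motif. To show where such letters lie near the genes that follow, the letters GTAAACA, a first variant (ATAAACA) and a further variant (CAAAACA) were searched on both strands of promoter windows from RefSeq (GRCh38.p14), each reaching from 250 bases before to 50 bases after a transcription start. Bases shared by more than 1 motif would count for each. Among 35116 windows of all genes, 3.42% held GTAAACA, 4.24% held ATAAACA, 4.92% held CAAAACA and 11.79% held at least 1 of them. All 10 genes had a window, 20 windows in all, and 4 genes had a match, each in 1 window: PIK3IP1, IRS2, TXNIP and FOXO3. The shares above are of windows, so they compare with the 20 windows and not with the 10 genes. The windows of the 2 genes that passed the test with PKC412, PIK3IP1 and IRS2, and of TXNIP, the gene that differed most between the lines, are printed 5′ to 3′ on the strand of the gene, with the match in capitals. For PIK3IP1 (chr22:31292439-31292738, minus strand) the capitals are the reverse complement of GTAAACA and begin 16 bases after the start. For IRS2 (chr13:109786534-109786833, minus strand) they are the reverse complement of CAAAACA and begin 40 bases before it. For TXNIP (chr1:145996530-145996829, minus strand) they are GTAAACA itself, beginning 124 bases before it.
PIK3IP1: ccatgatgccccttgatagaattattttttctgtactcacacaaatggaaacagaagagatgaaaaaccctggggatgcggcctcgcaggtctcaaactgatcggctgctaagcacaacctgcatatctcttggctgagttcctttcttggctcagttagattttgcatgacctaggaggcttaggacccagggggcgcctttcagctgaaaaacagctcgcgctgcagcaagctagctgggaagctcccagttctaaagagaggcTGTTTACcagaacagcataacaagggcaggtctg
IRS2: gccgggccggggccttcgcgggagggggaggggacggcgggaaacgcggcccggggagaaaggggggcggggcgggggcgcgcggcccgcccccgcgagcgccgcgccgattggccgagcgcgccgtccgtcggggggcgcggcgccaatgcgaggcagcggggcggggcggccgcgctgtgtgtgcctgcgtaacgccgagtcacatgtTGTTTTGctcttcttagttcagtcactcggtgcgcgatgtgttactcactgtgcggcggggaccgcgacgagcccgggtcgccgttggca
TXNIP: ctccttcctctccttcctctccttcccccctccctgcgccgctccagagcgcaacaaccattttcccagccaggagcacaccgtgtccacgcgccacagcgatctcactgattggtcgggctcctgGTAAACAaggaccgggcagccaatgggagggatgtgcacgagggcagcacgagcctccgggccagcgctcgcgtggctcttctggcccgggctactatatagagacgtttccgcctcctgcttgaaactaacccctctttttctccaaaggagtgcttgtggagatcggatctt
PIK3IP1 and TXNIP each have a further window, with no match, and the ATAAACA of FOXO3 lies in 1 of its 4 windows, 234 bases before that start. A match is a description of these letters and says nothing about binding in these cells. No match was found in the windows of FOXO1, INSR, CCNG2, SESN1, BCL6 or CITED2.

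In MDA-MB-468, PKC412 treatment raised PIK3IP1, an inhibitor of PI3-kinase at the membrane, and no other of the 10 genes passed the test. FOXO3, CCNG2 and SESN1 had ratios above 2 but with a spread between samples that kept them from the threshold. In ZR75-1, IRS2, the adaptor that links the insulin receptor to PI3-kinase, was raised, and CITED2 had a log2 fold change of similar size that missed the threshold. Of all tested genes, 0.691% rose in MDA-MB-468 and 0.747% in ZR75-1, whereas the share that fell was 0.566% and 0.199%, against 1 of 10 that rose and 0 of 10 that fell in each line here. At an unadjusted p under 0.05, 4 of the 10 genes were higher and 0 lower in MDA-MB-468, against 11.1% and 5.25% of all tested genes, and 3 were higher and 0 lower in ZR75-1, against 8.05% and 3.12%. The counts in MDA-MB-468, here and below, include TXNIP. Its means there were 0.00784 FPKM with DMSO and 0.00306 FPKM with PKC412, under the filter's 0.1 FPKM, so a fall could not be seen.

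**Figure D1:**
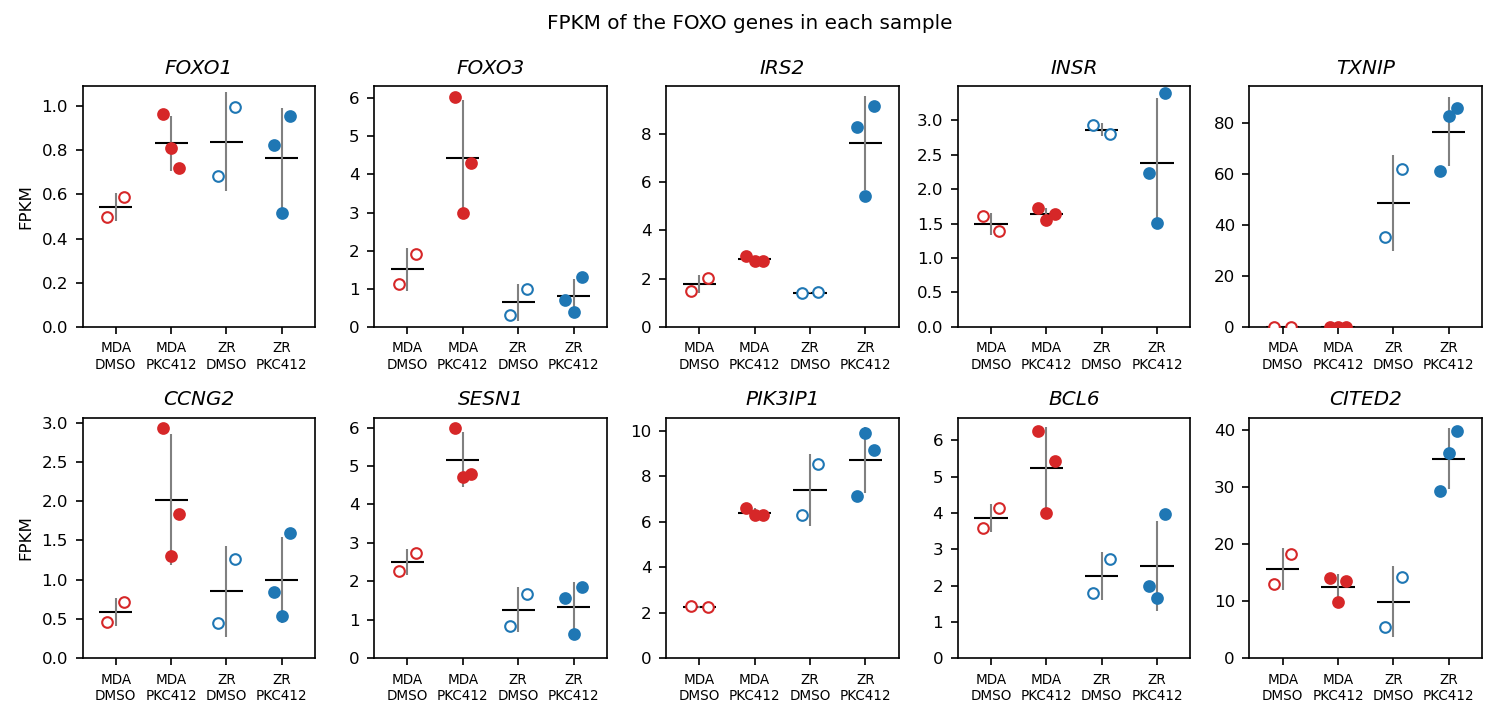
FPKM (vertical axis, linear, a separate scale for each gene) of the 10 genes in each sample of MDA-MB-468 (MDA, red) and ZR75-1 (ZR, blue), with DMSO as open and PKC412 as filled points; horizontal lines are group means and vertical lines are SD (n = 2 for DMSO, n = 3 for PKC412). PIK3IP1 in MDA-MB-468 and IRS2 and CITED2 in ZR75-1 have every PKC412 sample above both DMSO samples by a wide margin, and TXNIP is close to 0 in every MDA-MB-468 sample.

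The FOXO factors themselves were expressed at low levels. FOXO1 measured 0.499 and 0.588 FPKM in the DMSO samples of MDA-MB-468 and 0.963, 0.810 and 0.719 FPKM in its PKC412 samples. All 3 PKC412 samples lay above both DMSO samples, but the log2 fold change of 0.25 ± 0.13 (SE) did not pass (limma adjusted p = 0.345). In ZR75-1 the values were 0.682 and 0.997 FPKM with DMSO and 0.822, 0.517 and 0.956 FPKM with PKC412, so the groups overlapped (log2 fold change -0.062 ± 0.13, limma adjusted p = 0.920). FOXO1 shares part of its locus with the non-coding gene LINC00598 on the same strand, and reads of the 2 could be split between them.

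FOXO3, the other factor, was at 1.11 and 1.91 FPKM with DMSO and 6.03, 2.98 and 4.31 FPKM with PKC412 in MDA-MB-468. The groups did not overlap, with a ratio of means of 2.93, but the PKC412 samples spread widely (4.44 ± 1.53 FPKM, SD, n = 3). The log2 fold change was 1.09 ± 0.32 (SE, 95% interval 0.35 to 1.84, limma adjusted p = 0.191). In ZR75-1, FOXO3 overlapped between 0.302 and 0.987 FPKM with DMSO and 0.703, 0.394 and 1.31 FPKM with PKC412 (log2 fold change 0.13 ± 0.32, limma adjusted p = 0.937). FOXO3B, a near-identical copy with which FOXO3 can share reads, had a ratio of 2.63 in MDA-MB-468, with means of 0.268 FPKM with DMSO and 0.706 FPKM with PKC412. FOXO4, a further member of the family, had means of 1.16 and 2.35 FPKM in MDA-MB-468 and did not pass either (log2 fold change 0.63, limma adjusted p = 0.127), but it passed after the GC adjustment (0.57, limma adjusted p = 0.0190).

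Among the genes of the insulin pathway, PIK3IP1 gave the clearest change in MDA-MB-468. It measured 2.30 and 2.24 FPKM with DMSO and 6.63, 6.29 and 6.30 FPKM with PKC412. The 5 values form 2 tight groups, 2.27 ± 0.0443 FPKM (SD, n = 2) and 6.41 ± 0.192 FPKM (SD, n = 3), with a ratio of 2.82. The log2 fold change was 1.18 ± 0.17 (SE, 95% interval 0.78 to 1.58, limma adjusted p = 0.0216). In bulk RNA a change in the number of cells that express a gene and a change in RNA per cell cannot be told apart. In ZR75-1, where PIK3IP1 was already at 6.30 and 8.53 FPKM with DMSO, it measured 7.12, 9.93 and 9.17 FPKM with PKC412, and the groups overlapped (log2 fold change 0.21 ± 0.17, limma adjusted p = 0.706). The call in MDA-MB-468 was lost when DMSO sample 1 (adjusted p = 0.158), DMSO sample 2 (0.122), PKC412 sample 1 (0.0883) or PKC412 sample 3 (0.0950) of that line was left out, while the log2 fold change stayed between 1.16 and 1.19.

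IRS2 was the gene that passed in ZR75-1. It measured 1.41 and 1.43 FPKM with DMSO and 8.30, 5.43 and 9.14 FPKM with PKC412. All 3 treated samples were several times higher than both controls, with a ratio of means of 5.37 and a log2 fold change of 1.81 ± 0.21 (SE, 95% interval 1.32 to 2.29, limma adjusted p = 0.00916). In MDA-MB-468, IRS2 went from 1.5 and 2.04 FPKM to 2.94, 2.73 and 2.72 FPKM, without overlap but short of the threshold (log2 fold change 0.46 ± 0.21, limma adjusted p = 0.310). The call in ZR75-1 was lost without DMSO sample 1 of that line (log2 fold change 1.80, adjusted p = 0.0757) and when ZR75-1 was fitted alone (1.81, adjusted p = 0.353).

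INSR, the insulin receptor, did not separate the treatments in either line. In MDA-MB-468 it measured 1.61 and 1.39 FPKM with DMSO and 1.72, 1.56 and 1.63 FPKM with PKC412. In ZR75-1 it measured 2.93 and 2.80 FPKM with DMSO and 2.23, 1.51 and 3.40 FPKM with PKC412. The log2 fold changes were 0.079 (95% interval -0.43 to 0.59, limma adjusted p = 0.864) and -0.23 (95% interval -0.74 to 0.28, limma adjusted p = 0.755), so changes of either sign within these intervals are not excluded.

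CCNG2, an atypical cyclin linked to cell cycle arrest, and SESN1, a sestrin that restrains mTORC1, had higher means with PKC412 in MDA-MB-468 but did not pass the test. CCNG2 measured 0.468 and 0.719 FPKM with DMSO and 2.93, 1.30 and 1.83 FPKM with PKC412, or 3.41-fold in the means (log2 fold change of 0.89 with an SE of 0.31, limma adjusted p = 0.246). SESN1 measured 2.26 and 2.74 FPKM with DMSO and 5.99, 4.72 and 4.78 FPKM with PKC412, or 2.07-fold in the means (log2 fold change of 0.81 with an SE of 0.27, limma adjusted p = 0.241). Neither gene overlapped between treatments in this line, and in both PKC412 sample 1 was the highest. In ZR75-1 both overlapped. CCNG2 ranged from 0.444 to 1.26 FPKM with DMSO and from 0.540 to 1.60 FPKM with PKC412 (limma adjusted p = 0.951), and SESN1 from 0.845 to 1.67 FPKM and from 0.622 to 1.84 FPKM (limma adjusted p = 0.998).

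CITED2, which binds the coactivators p300 and CBP, measured 5.57 and 14.3 FPKM with DMSO and 29.2, 35.9 and 39.8 FPKM with PKC412 in ZR75-1, a difference that did not pass. Every PKC412 sample lay far above both DMSO samples, but the DMSO samples also lay far apart (9.93 ± 6.17 FPKM, SD, n = 2). The ratio was 3.52 and the log2 fold change 1.83 ± 0.35 (SE, 95% interval 1.04 to 2.63, limma adjusted p = 0.0633). It passed when the samples were rescaled by median ratios within the line (adjusted p = 0.0400) and without DMSO sample 2 (log2 fold change 2.44, adjusted p = 0.0152). In MDA-MB-468 the values were 13.0 and 18.2 FPKM with DMSO and 14.0, 9.77 and 13.6 FPKM with PKC412, with overlap (log2 fold change -0.30 ± 0.35, limma adjusted p = 0.616).

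BCL6, a transcriptional repressor, overlapped between treatments in both lines. It measured 3.58 and 4.13 FPKM with DMSO and 6.26, 4.0 and 5.43 FPKM with PKC412 in MDA-MB-468 (log2 fold change 0.35 ± 0.30, limma adjusted p = 0.495). In ZR75-1 it measured 1.80 and 2.73 FPKM with DMSO and 2.00, 1.67 and 3.96 FPKM with PKC412 (log2 fold change 0.077 ± 0.30, limma adjusted p = 0.973).

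TXNIP, which binds thioredoxin and limits glucose uptake, was nearly absent from one line. In MDA-MB-468 it was listed at 0.00799 and 0.00769 FPKM with DMSO, at 0.00918 FPKM in PKC412 sample 2 and at 0 in PKC412 samples 1 and 3. In ZR75-1 it measured 35.5 and 62.0 FPKM with DMSO and 61.3, 83.0 and 85.9 FPKM with PKC412. The lowest treated sample lay just under the higher DMSO sample (log2 fold change 0.68 ± 0.24, limma adjusted p = 0.365). ARRDC4, which shares with TXNIP the glucose-sensing regulator MondoA, also had its low level in MDA-MB-468, at no more than 0.0511 FPKM, and went from a mean of 0.621 FPKM to 1.13 FPKM in ZR75-1 (log2 fold change 0.37, limma adjusted p = 0.6).

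**Figure D2:**
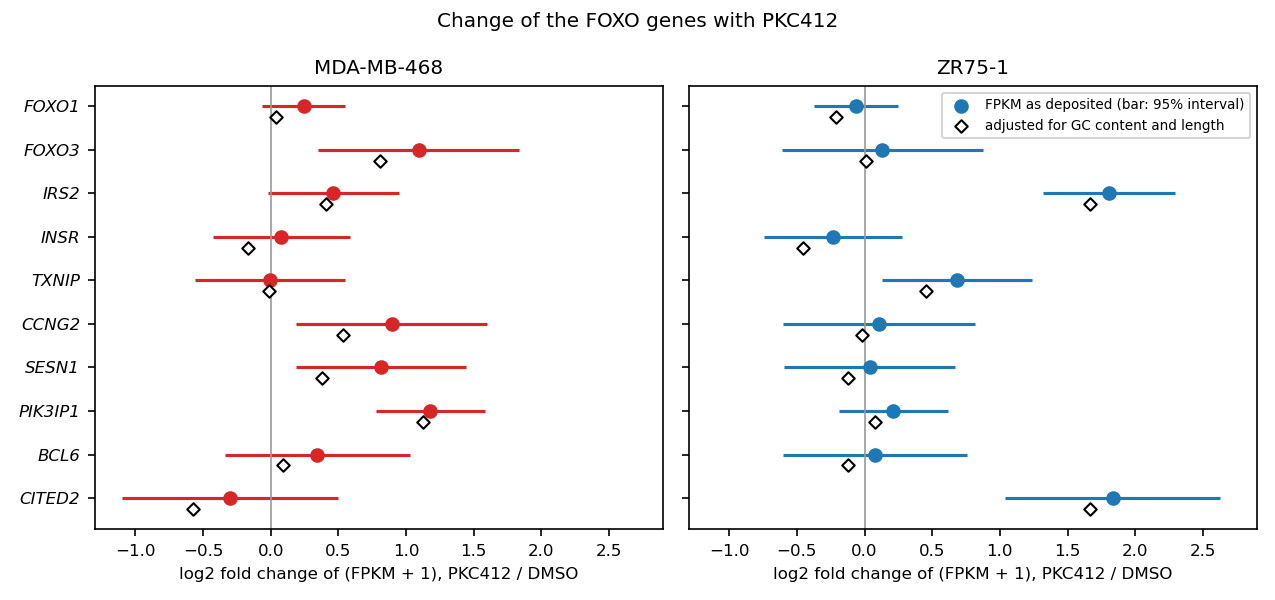
Log2 fold change of (FPKM + 1), PKC412 over DMSO (horizontal axis), for each of the 10 genes (vertical axis) in MDA-MB-468 (left) and ZR75-1 (right). Filled points with bars are the limma estimates with 95% intervals, and open diamonds are the estimates after adjustment for GC content and transcript length; the largest filled values are PIK3IP1 at 1.18 on the left and CITED2 at 1.83 and IRS2 at 1.81 on the right.

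With DMSO alone, 2 of the 10 genes differed between the lines, against 42.4% of all tested genes. TXNIP was lower in MDA-MB-468, with means of 0.00784 FPKM there and 48.7 FPKM in ZR75-1 (log2 difference -5.57 ± 0.26, limma adjusted p = 1.743e-06). As it passed the filter only through ZR75-1, the direction of this difference was fixed by the filter, and its test is only a description. PIK3IP1 was lower in MDA-MB-468 too, with means of 2.27 and 7.41 FPKM (log2 difference -1.35 ± 0.19, limma adjusted p = 6.513e-04). INSR had means of 1.5 and 2.86 FPKM and did not pass (log2 difference -0.63, limma adjusted p = 0.0688). In order of mean level per length with DMSO, MDA-MB-468 ran from CITED2 at 15.6 FPKM over BCL6 at 3.86 and SESN1 at 2.5 FPKM down to TXNIP, and ZR75-1 from TXNIP at 48.7 over CITED2 at 9.93 and PIK3IP1 at 7.41 FPKM down to FOXO3 at 0.645 FPKM. The samples of CITED2 and PIK3IP1 overlapped in ZR75-1, as did those of SESN1 and PIK3IP1 in MDA-MB-468. After PKC412, PIK3IP1 in MDA-MB-468 stood at 6.41 FPKM, below its mean in treated ZR75-1 cells of 8.74 FPKM.

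Whether a gene changed differently in the 2 lines was tested directly, by subtracting the ZR75-1 log2 fold change from that of MDA-MB-468. None of the 10 genes passed by limma, against 0.268% of all tested genes, and at an unadjusted p under 0.05 there was 1 gene with the higher value in MDA-MB-468 and 2 with the higher value in ZR75-1, against 3.32% and 3.73% of all tested genes. These were PIK3IP1 (0.97 ± 0.25, limma adjusted p = 0.286), CITED2 (-2.13 ± 0.49, limma adjusted p = 0.215) and IRS2 (-1.34 ± 0.30, limma adjusted p = 0.192). The calls of PIK3IP1 in one line and of IRS2 in the other therefore do not show that the lines differ. The difference passed for IRS2 without PKC412 sample 2 of ZR75-1 (-1.54, adjusted p = 0.0370) and for CITED2 without DMSO sample 2 of ZR75-1 (-2.74, adjusted p = 0.0390).

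The samples of a group did not vary independently from gene to gene. PKC412 sample 1 of MDA-MB-468 was the highest of its group for 9 of the 10 genes. In ZR75-1, DMSO sample 1 was the lowest of its pair for 9 of the 10 genes, PKC412 sample 2 was the lowest of its group for 7 and PKC412 sample 3 the highest for 9. The samples also differed in how FPKM followed the GC content of the transcripts, measured as the slope of the log2 deviation of a gene from its line mean. Per 10 points of GC, it amounted on the log2 scale to 0.373 and 0.0573 in the DMSO samples of MDA-MB-468 and to -0.287, -0.0240 and -0.119 in its PKC412 samples, so it separated the treatments in that line. In ZR75-1 it was 0.314 and -0.192 with DMSO and -0.107, 0.342 and -0.356 with PKC412, and the treatments overlapped. The 10 transcripts ran from 40.8% GC for CCNG2 and 43.4% for SESN1 to 54.5% for PIK3IP1 and 58.7% for IRS2. The slope and the treatment cannot be told apart in MDA-MB-468, and an effect of the drug that followed GC content would be removed by an adjustment for it.

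**Figure D3:**
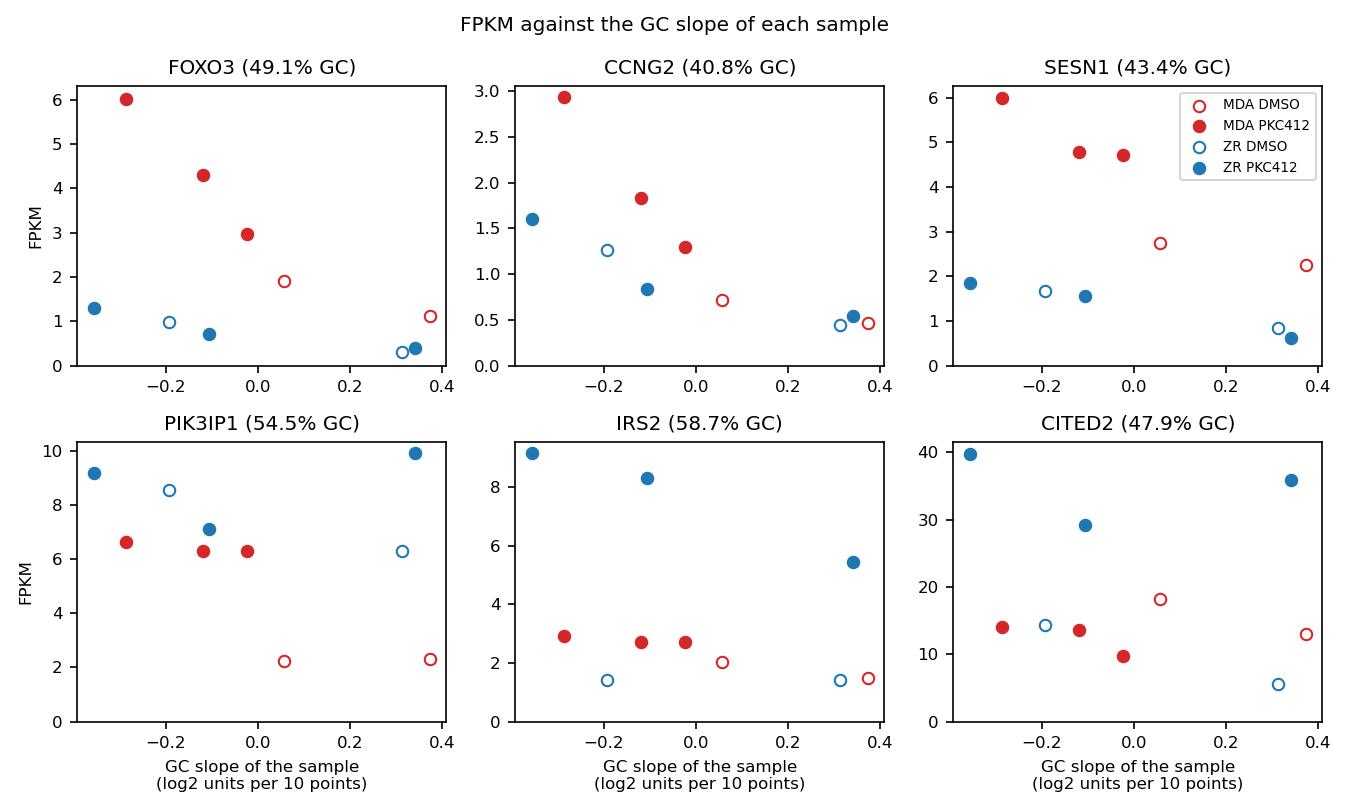
FPKM (vertical axis, linear) of 6 of the genes against the GC slope of each sample (horizontal axis, log2 units per 10 points of GC), for MDA-MB-468 (MDA, red) and ZR75-1 (ZR, blue) with DMSO (open) and PKC412 (filled). In MDA-MB-468, CCNG2, at 40.8% GC, is lower in each sample with a higher slope, while PIK3IP1 in MDA-MB-468 stays between 6.29 and 6.63 FPKM across the 3 treated samples.

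Once the FPKM had been adjusted for both GC content and transcript length, PIK3IP1 in MDA-MB-468 kept a log2 fold change of 1.13 (limma adjusted p = 0.00345) and IRS2 in ZR75-1 one of 1.66 (limma adjusted p = 0.00340). CITED2 passed in ZR75-1 at 1.67 (limma adjusted p = 0.0114). CCNG2 passed in MDA-MB-468 at a smaller value than before, 0.53 (limma adjusted p = 0.0462), while SESN1 was at 0.38 (limma adjusted p = 0.142) and FOXO3 at 0.81 (limma adjusted p = 0.0630). With this adjustment 1.97% of all tested genes passed as higher and 1.65% as lower in MDA-MB-468, and 1.74% and 1.08% in ZR75-1, so calls became more frequent throughout. The difference between the lines passed for PIK3IP1 (1.05, limma adjusted p = 0.0401) and CITED2 (-2.24, limma adjusted p = 0.0237), where 0.498% of all tested genes passed with the higher value in MDA-MB-468 and 0.809% with the higher value in ZR75-1. With the slope as a covariate, this difference passed for IRS2 and CITED2 but not for PIK3IP1, against 1.21% of all tested genes.

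Counting genes whose treatments did not overlap shows the same dependence. In MDA-MB-468, 6 of the 10 genes had every PKC412 sample above every DMSO sample, against 39.6% of all tested genes, and 0 had every one below, against 16.3%. In ZR75-1 there were 2 above, against 14.8%, and 0 below, against 6.98%. After the adjustment there were 5 above and 1 below in MDA-MB-468, against 28.3% and 24.2%, and 3 above and 2 below in ZR75-1, against 15.8% and 13.6%. The gene below in MDA-MB-468 was CITED2, and those below in ZR75-1 were FOXO1 and INSR. The median log2 fold change of the 10 genes in MDA-MB-468 was 0.40 beside 0.11 for all tested genes, and 0.23 beside 0.007 after the adjustment. In ZR75-1 it was 0.12 beside 0.068, and -0.004 beside 0.005 after it.

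Other genes described as raised by FOXO factors were read in the same way. Of 29, 24 passed the filter, and 0 of these passed the limma test in either line. Of all tested genes, 0.691% passed as higher and 0.566% as lower in MDA-MB-468, and 0.747% and 0.199% in ZR75-1. At an unadjusted p under 0.05, 9 were higher and 0 lower in MDA-MB-468, against 11.1% and 5.25% of all tested genes, and 3 were higher and 2 lower in ZR75-1, against 8.05% and 3.12%. Their log2 fold changes had a median of 0.47 in MDA-MB-468 and of 0.26 in ZR75-1, or 0.21 and 0.12 after the GC adjustment. In MDA-MB-468, 18 of the 24 had every PKC412 sample above both DMSO samples and 1 had every one below, against 39.6% and 16.3% of all tested genes. In ZR75-1 the numbers were 5 and 3, against 14.8% and 6.98%. After the adjustment they were 14 and 1 in MDA-MB-468, against 28.3% and 24.2%, and 8 and 2 in ZR75-1, against 15.8% and 13.6%.

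Among them, BCL2L11, which encodes the cell death protein BIM, had means of 3.11 and 7.76 FPKM in MDA-MB-468 (log2 fold change 1.08 ± 0.34, limma adjusted p = 0.216). BTG1, an inhibitor of proliferation, had means of 4.86 and 13.6 FPKM there (1.31 ± 0.30, limma adjusted p = 0.102). Its log2 fold change there was 0.64 after the GC adjustment (limma adjusted p = 0.212). After the adjustment 3 of the 24 genes, BCL2L11, BBC3 and ULK1, passed as higher in MDA-MB-468, against 1.97% of all tested genes, and 1, TNFSF10, as lower in ZR75-1, against 1.08%. Of the genes that FOXO factors lower, 2 of 3 were measurable. CCND1, which encodes cyclin D1, went from 30.4 and 28.1 FPKM to 19.7, 15.6 and 17.6 FPKM in MDA-MB-468, and from 175 and 160 FPKM to 104, 83.9 and 137 FPKM in ZR75-1. It did not overlap between treatments in either line and did not pass (log2 fold changes -0.71 and -0.65, limma adjusted p = 0.166 and 0.267), whereas after the adjustment it was lower in both (-1.04 and -0.95, limma adjusted p = 0.0193 and 0.0313). FOXM1 had log2 fold changes of 0.10 and 0.011 and did not pass in either line.

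Of the 17 genes of the PI3-kinase and AKT pathway, 1 rose and 0 fell in MDA-MB-468, against 0.691% and 0.566% of all tested genes. In ZR75-1, 0 rose and 0 fell, against 0.747% and 0.199%. At an unadjusted p under 0.05, 1 was higher and 0 lower in MDA-MB-468, against 11.1% and 5.25%, and 3 were higher and 1 lower in ZR75-1, against 8.05% and 3.12%. The gene that rose was SGK1, a kinase related to AKT that also phosphorylates FOXO factors. It went from 0.827 and 2.04 FPKM to 9.87, 5.57 and 7.62 FPKM, or 5.35-fold in the means (log2 fold change of 1.85 with an SE of 0.27, limma adjusted p = 0.0182). In ZR75-1 SGK1 was much less abundant, at 0.0399 and 0.122 FPKM with DMSO and 0.212, 0.203 and 0.416 FPKM with PKC412. The groups did not overlap there either, with a ratio of 3.42, and the test was not passed (0.24 ± 0.27, limma adjusted p = 0.806). INPP4B, a phosphatase that opposes PI3-kinase signalling, had means of 4.14 and 1.22 FPKM in ZR75-1 and did not pass (-1.27 ± 0.28, limma adjusted p = 0.122), but it passed as lower after the GC adjustment (-1.5, limma adjusted p = 0.0102).

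SESN1 is also a target of p53. Of 8 p53 target genes, 1 rose and 0 fell in MDA-MB-468, against 0.691% and 0.566% of all tested genes. In ZR75-1, 0 rose and 0 fell, against 0.747% and 0.199%. At an unadjusted p under 0.05, 4 were higher and 0 lower in MDA-MB-468, against 11.1% and 5.25%, and 0 were higher and 1 lower in ZR75-1, against 8.05% and 3.12%. CDKN1A, which encodes the cyclin-dependent kinase inhibitor p21 and is a target of both p53 and FOXO factors, went from 27.2 and 28.2 FPKM to 60.4, 59.4 and 61.7 FPKM in MDA-MB-468 (log2 fold change 1.10 ± 0.14, limma adjusted p = 0.0104). In ZR75-1 it stood at 157 and 208 FPKM with DMSO and 204, 249 and 209 FPKM with PKC412, with overlap. SESN2, a second sestrin, had means of 8.22 and 12.7 FPKM in MDA-MB-468 (0.58 ± 0.11, limma adjusted p = 0.0541). After the GC adjustment SESN2 passed in MDA-MB-468 (0.57, limma adjusted p = 0.0104), as did its difference between the lines (0.81, limma adjusted p = 0.0192). The difference between the lines also passed after that adjustment for CDKN1A (0.97, limma adjusted p = 0.0319) and SGK1 (1.36, limma adjusted p = 0.0493), and not before it (limma adjusted p = 0.246 and 0.222). For SGK1, no ZR75-1 sample exceeded 0.416 FPKM, a level at which the added 1 shrinks the log2 fold change. Its ratios of means, without the added value, were 5.35 in MDA-MB-468 and 3.42 in ZR75-1.

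**Figure D4:**
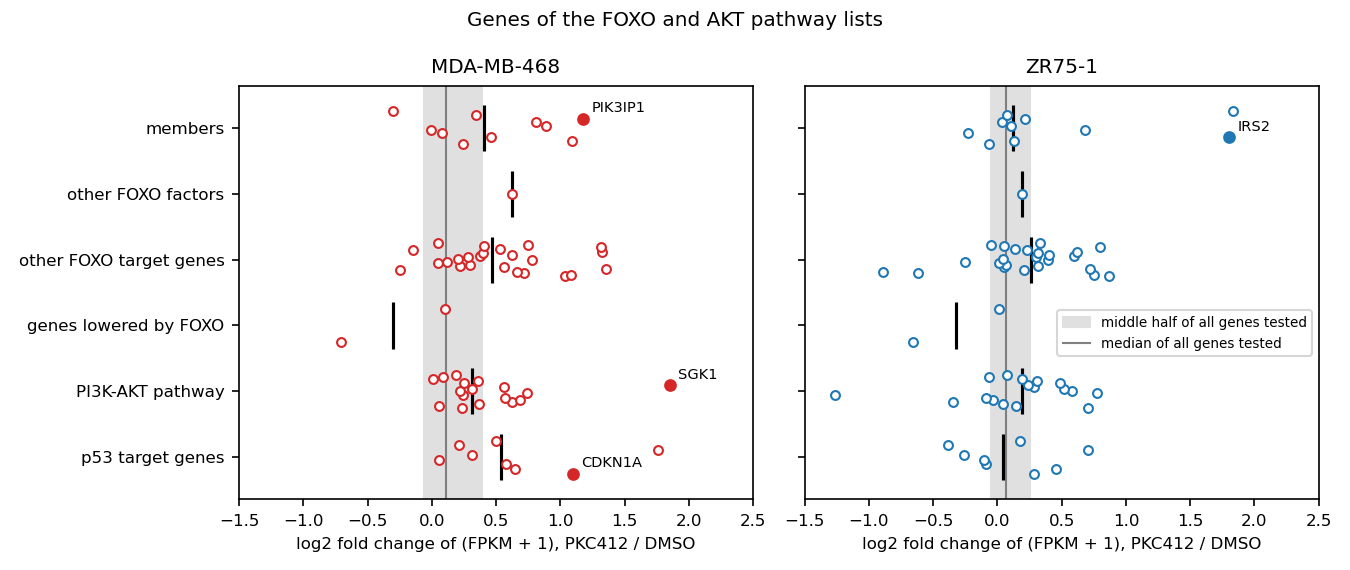
Log2 fold change of (FPKM + 1), PKC412 over DMSO (horizontal axis), of each tested gene of the FOXO, AKT pathway and p53 lists (vertical axis) in MDA-MB-468 (left) and ZR75-1 (right). Filled, named points passed the limma test and open ones did not; black lines are list medians, the grey line is the median of all 16071 tested genes and the grey band holds the middle 50% of them. SGK1 at 1.85, PIK3IP1 at 1.18 and CDKN1A at 1.10 are filled on the left, and IRS2 at 1.81 on the right.

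For the 2 genes that passed, the genes with the most similar profile were found by Pearson correlation of log2(FPKM + 1), centred in each line, over the 10 samples and 11135 genes with a mean above 1 FPKM. PIK3IP1 was most similar to CDKN1A (r = 0.984), TSKU (0.979) and MAP2K3 (0.978). IRS2 was most similar to COL1A1 (r = 0.989), TSPAN5 (0.985) and BDKRB2 (0.984). The samples share treatment and scaling, so these values are a description.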

How the data were processed

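RNA of 10 samples (2 DMSO and 3 PKC412 per line) was sequenced by the authors on an Illumina HiSeq2000. The deposited values are FPKM per gene symbol, which the authors calculated in a pipeline of their own; the submitters' processing notes name CASAVA 1.82, TopHat2 and hg19. The annotation and counter are not given in the sources used here. FPKM sums per sample ran from 599228 to 835069, and 3193 genes were at 0 in every sample. Depth was not estimated from the low values, and precision rests on replicate spread.

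Groups came from the sample labels. limma 3.58.1 in R 4.3.3 was fitted to log2(FPKM + 1), with 1 mean per group, eBayes with a trend leaving 6 residual degrees of freedom. The 16071 genes whose group mean exceeded 0.1 FPKM in any group were tested, and p-values were adjusted by Benjamini-Hochberg over all of them. The script was tested on simulated data. The methods describe triplicates. GC content and positions came from GENCODE on GRCh38 by symbol (88.1% of genes). The adjustment divided out, per sample, cubic curves (degree 3) of GC content and of log2 length. The alternatives set at the start were other pseudocounts, filters and scalings, a replicate block, each line alone, eBayes without trend and each sample left out; the GC alternatives were chosen after seeing the data. All 10 genes are named. From the other lists, genes that passed the test and up to 4 examples each are named, and for each of the 10 genes that passed, its 3 most similar genes. The genes and lists were chosen with earlier results of these data known. Python 3.11.15 with pandas 2.3.3, numpy 2.4.6 and matplotlib 3.10.9 was used for the rest.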

Additional observations from a re-analysis of the deposited data

Results flagged for a closer look

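Before adjustment for GC content and length, no gene of the 10 met a criterion for a closer look. After it, every PKC412 sample of CITED2 lay below DMSO in MDA-MB-468 and above it in ZR75-1. The difference between the lines then passed for CITED2 (-2.24, limma adjusted p = 0.0237) and PIK3IP1 (1.05, limma adjusted p = 0.0401). Before the adjustment, 5 (7.94%) of 63 tested genes among the 10 and the pathway lists separated the treatments in opposite directions in the 2 lines. These had every PKC412 sample on one side of DMSO in MDA-MB-468 and on the other side in ZR75-1, against 1.62% of all tested genes. None of the 5 differences between the lines passed by limma before the adjustment. BBC3, which encodes the cell death protein PUMA, had means of 3.30 and 6.03 FPKM in MDA-MB-468 and 9.58 and 5.93 FPKM in ZR75-1, a difference in log2 fold change of 1.33 (limma adjusted p = 0.108, and 0.00287 after adjustment for GC content and length). TNFSF10, the death ligand TRAIL, had means of 5.83 and 9.78 FPKM in MDA-MB-468 and 3.53 and 1.51 FPKM in ZR75-1, a difference of 1.55 (limma adjusted p = 0.214, and 0.0437 after the adjustment). INPP4B had a difference of 1.5 (limma adjusted p = 0.326), ERBB3 one of 0.37 (0.715) and PINK1 one of -0.37 (0.739). The differences of INPP4B, ERBB3 and PINK1 did not pass after the adjustment either. INPP4B then had negative log2 fold changes in both MDA-MB-468 and ZR75-1 (-0.37 and -1.496), as did ERBB3 (-0.157 and -0.545). Opposite signs remained for PINK1 (-0.107 and 0.115), BBC3 (0.97 and -0.388) and TNFSF10 (0.214 and -0.996).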

How the results depend on the processing

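Other pseudocounts, filters on low FPKM and eBayes without the trend left the number of the 10 genes past the threshold as it was in each comparison. In MDA-MB-468 that number, 1, became 0 with the replicate number as a block, 2 after adjustment for GC content and length and 0 with both, and ranged from 0 to 1 with a sample left out. In ZR75-1 it went from 1 to 2 with either rescaling by median ratios, to 0 with each line alone, to 2 with the GC adjustment or with the GC slope as a covariate, to 0 with the block alone or with the GC adjustment, and ranged from 0 to 2 with a sample left out. For the difference between the lines, 0 became 2 with the GC adjustment and 2 with the GC slope, and ranged from 0 to 1. For the DMSO level, 2 became 3 with rescaling within each line, 4 with all 10 samples rescaled, 7 with the GC adjustment and 7 with the GC slope, and ranged from 2 to 4. Calls among all tested genes moved as well: with the GC adjustment from 202 to 581 in MDA-MB-468, from 152 to 453 in ZR75-1, from 43 to 210 for the difference and from 6822 to 9510 (42.4% to 59.2%) for the DMSO level, and with the GC slope to 242, 519, 195 and 9906 (61.6%). For the difference between the lines, the 2 genes were PIK3IP1 and CITED2 with the GC adjustment, but IRS2 and CITED2 with the GC slope. Of all tested genes, 0.946% passed for ZR75-1 in the main fit. Rescaling within each line gave 0.952% there, and rescaling all 10 samples gave 0.902%. For the DMSO level, the same rescalings gave 45.3% and 43.6%. For MDA-MB-468, 1.26% passed in the main fit, and 0.535% to 2.02% without 1 of its PKC412 samples. The same omission for ZR75-1 gave 0.448% to 1.14%. Without 1 PKC412 sample of either line, the share for the DMSO level was 38.7% to 46.5%. With each line alone, 12 genes (0.0747%) passed in ZR75-1. The cause was not tested.

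Correlations between samples of the same replicate number showed no pairing, but they cannot exclude it. For each of 11144 genes, the deviation of a sample from the mean of its group was taken. Between the DMSO and PKC412 samples of the same number, these deviations correlated at -0.178 and -0.122 in MDA-MB-468. In ZR75-1 the correlations of the deviations were -0.022 and -0.391. The deviations of 2 DMSO samples from their mean mirror each other, so the correlations within a line are not independent. The samples also differed in GC slope, which was not removed here. With the block, which leaves 2 residual degrees of freedom, 0 of all genes passed in any comparison of treatments, and the log2 fold change was 1.19 for PIK3IP1 in MDA-MB-468 (limma adjusted p = 0.683) and 1.68 for IRS2 in ZR75-1 (limma adjusted p = 1).

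Of 646 values of single genes, 589 kept their direction and side of the threshold, 10 no longer passed, 12 newly passed and 35 changed sign, none of which had passed. In MDA-MB-468, INSR changed to -0.016 with rescaling within the line, -0.17 with the GC adjustment, -0.15 with that and the block and -0.12 with the GC slope, and BCL6 to -0.036 with the GC slope. In ZR75-1, values with a sample left out ran from -0.19 to 0.062 for FOXO1, -0.17 to 0.44 for FOXO3, -0.22 to 0.43 for CCNG2, -0.23 to 0.30 for SESN1 and -0.19 to 0.28 for BCL6. With the block they were -0.062 for FOXO3, -0.10 for CCNG2, -0.12 for SESN1 and -0.19 for BCL6, and with the block and the GC adjustment -0.073, -0.052, -0.14 and -0.27. The GC adjustment gave -0.019 for CCNG2, -0.12 for SESN1 and -0.12 for BCL6, and the GC slope -0.015, -0.073 and -0.030. Rescaling within the line and over all samples gave -0.033 and -0.029 for SESN1 and -0.015 and -0.006 for BCL6. The difference between the lines for BCL6 became -0.005 with the GC slope.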
